A study of Mus musculus with 4 samples.

Results

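Enpp2, Lpar1, Lpar4, Lpar6, Plpp1 and Plpp3, a set of 6 genes of the 32285 in the count tables, were followed in single cells of a mouse mesenchymal line that carried either of 2 histone H3 transgenes, each with and without 5-Aza. The genes were taken by name, as a source, receptors and degrading enzymes of lysophosphatidic acid (LPA). C3H 10T1/2 cells, a clonal line of multipotent mouse mesenchymal progenitors, were transduced with a lentivirus for tagged human histone H3 that was wild type (H3WT) or had the R26C change (H3R26C), and were selected with puromycin. They then received the vehicle DMSO or 5-Aza, a cytidine analogue that lowers DNA methylation and lets part of this line enter muscle and fat differentiation, at 3 µM for 24 h. Per the study's methods the cells were collected at day 28, and the day on which the DMSO cells were taken was not given in the sources used here. Every library thus held cells with the transgene and the selection, and the endogenous H3 genes were still present. There were 4 single-cell libraries, 1 per condition, so no difference below has a replicate check, and no p-value is given.

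Autotaxin, the product of Enpp2, is a secreted lysophospholipase D that makes LPA outside the cell from lysophosphatidylcholine. LPA then acts on G protein-coupled receptors. Lpar1 belongs to the receptor family related to the sphingosine 1-phosphate receptors, while Lpar4 and Lpar6 belong to a separate family related to the purinergic receptors. Lipid phosphate phosphatases at the cell surface, among them the products of Plpp1 and Plpp3, end the signal by removing the phosphate. Adipocytes and their precursors are a known source of autotaxin, and mesenchymal cells answer LPA through G proteins that act on the SRF and YAP transcriptional programmes.

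The 6 genes lie at separate positions of the GRCm38 assembly (GENCODE M21). Enpp2 is on chr15:54838901-54952892 on the minus strand, and Lpar1 is on chr4:58435255-58553898, also on the minus strand. Lpar4 is on chrX:106920625-106933900, Plpp1 on chr13:112800792-112867894 and Plpp3 on chr4:105157347-105232764, all on the plus strand. Lpar6 is a gene of 1 exon on chr14:73237895-73243294, inside the opposite-strand gene Rb1, and the end of Plpp1 overlaps the end of the opposite-strand gene Mtrex. Enpp2 overlaps the opposite-strand gene Gm26684, and Lpar1 overlaps the microRNA gene Mir3095 and the pseudogene Gm12577 on its own strand. Cell Ranger counts the sense strand for this kind of library, which does not separate genes on 1 strand, and Lpar4 and Plpp3 are the members with no overlapping gene.

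RefSeq upstream windows (GRCm38.p6) were at hand for 4 of the 6 members, Lpar1 with 3 annotated starts and Lpar4, Lpar6 and Plpp3 with 1 each. They are shown because 5-Aza acts on cytosine methylation, which in mammals sits mostly at CpG. Each is the 250 bases before the start, read 5′ to 3′ on the gene's strand, with CpG dinucleotides in capitals. Lpar1 is shown at the start with most CpG (chr4:58553294-58553543, minus strand), Lpar4 at chrX:106920375-106920624, Lpar6 at chr14:73237641-73237890 and Plpp3 at chr4:105157097-105157346, the last 3 on the plus strand.
Lpar1, CpG-rich start: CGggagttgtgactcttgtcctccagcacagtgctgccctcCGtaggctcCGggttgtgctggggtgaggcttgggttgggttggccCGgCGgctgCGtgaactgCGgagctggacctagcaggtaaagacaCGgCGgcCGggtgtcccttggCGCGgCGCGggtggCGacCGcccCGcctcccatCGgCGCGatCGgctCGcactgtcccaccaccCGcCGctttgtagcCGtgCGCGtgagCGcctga
Lpar4: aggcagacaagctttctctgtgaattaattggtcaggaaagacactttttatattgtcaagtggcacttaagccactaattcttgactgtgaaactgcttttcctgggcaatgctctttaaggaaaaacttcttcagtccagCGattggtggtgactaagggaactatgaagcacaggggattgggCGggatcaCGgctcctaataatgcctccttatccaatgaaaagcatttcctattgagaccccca
Lpar6: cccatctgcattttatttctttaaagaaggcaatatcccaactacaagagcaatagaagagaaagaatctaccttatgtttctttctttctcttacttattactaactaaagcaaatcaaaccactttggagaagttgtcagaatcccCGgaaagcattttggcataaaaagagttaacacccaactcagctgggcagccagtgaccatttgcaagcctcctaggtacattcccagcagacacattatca
Plpp3: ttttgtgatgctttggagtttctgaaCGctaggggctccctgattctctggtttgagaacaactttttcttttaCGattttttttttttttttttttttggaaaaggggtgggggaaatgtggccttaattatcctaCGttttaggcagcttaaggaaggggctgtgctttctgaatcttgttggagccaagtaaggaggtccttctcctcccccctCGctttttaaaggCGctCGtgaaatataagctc

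The Lpar1 window held 28 CpG, at percentile 92.8 of the 32851 windows of that length, while its other starts held 11 and 3. Plpp3 held 6, Lpar4 held 3 and Lpar6 held 1, against a median of 6 over all windows. Of 5 short motifs searched on both strands, the Lpar4 window held TATAAA (12.4% of all windows), CCAAT (33.8%) and GGGCGG (32.7%), the Lpar1 window held GGGCGG, the Lpar6 window held GGAATG (12.6%), and the Plpp3 window held none of these nor TGANTCA (6.75%). These are matches of letters only, and methylation was not measured in these libraries.

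Cells were barcodes with at least 5000 unique molecular identifiers (UMIs), at least 1500 genes and at most 20% mitochondrial UMIs, which left 3710 of 6239 barcodes for H3WT DMSO, 5993 of 15002 for H3WT 5-Aza, 4727 of 6540 for H3R26C DMSO and 7619 of 12110 for H3R26C 5-Aza. Median depth was 22420 UMIs in H3WT DMSO and between 13123 and 16598 in the others. Pairs of libraries shared 24 to 58 barcodes among kept cells, at most 1.11% of the smaller library. Skeletal muscle markers, 12 genes, summed to 2.57 and 2.64 UMIs per 1000000 UMIs (CPM) in the DMSO libraries and to 2013 and 2513 CPM in the H3WT and H3R26C 5-Aza libraries, so the label of mesenchymal progenitors covered a mixture after 5-Aza. Doublets were not removed. Levels are CPM of the summed kept cells, and all ranges in parentheses after a value are 95% intervals that cover counting error only.

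Autotaxin RNA was at a different level in each of the 4 libraries, lowest in H3WT with DMSO and highest in H3R26C with 5-Aza. Enpp2 was at 48.0 CPM (46.5 to 49.5) in H3WT DMSO, 91.8 CPM (89.8 to 93.9) in H3WT 5-Aza, 107 CPM (105 to 109) in H3R26C DMSO and 204 CPM (201 to 207) in H3R26C 5-Aza. No interval overlapped its neighbour's, but the intervals in this paragraph do not cover which cells were sampled. The variance of the per-cell Enpp2 count was 10.1 to 26.3 times its mean. The 5-Aza library was 1.91 times its DMSO library with either transgene (1.84 to 1.99 in H3WT and 1.86 to 1.95 in H3R26C), and the H3R26C library was 2.23 times the H3WT library with DMSO and 2.22 times with 5-Aza. The log2 change with 5-Aza in H3R26C minus that in H3WT was -0.005 (-0.069 to 0.060). The 4 comparisons share libraries, so these ratios are not independent of each other.

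A gene was counted as past the fold where log2((CPM + 1)/(CPM + 1)) was 1 or more in size, among genes of at least 1 CPM in either group. Of the 6 members, Enpp2 alone passed it, in H3R26C against H3WT with DMSO (log2 1.14, where 2.5% of all genes passed) and with 5-Aza (log2 1.14, where 7.64% passed). With 5-Aza against DMSO no member passed, in H3WT, where 5.15% of genes did, or in H3R26C, where 12.1% did. Enpp2 was at log2 0.92 in both of the latter, just short of the limit. Lpar4 was nearer to it in H3R26C, at log2 -0.97. Under 8 alternatives that value lay between -1.004 and -0.902, so whether Lpar4 passed depended on the processing.

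**Figure D1:**
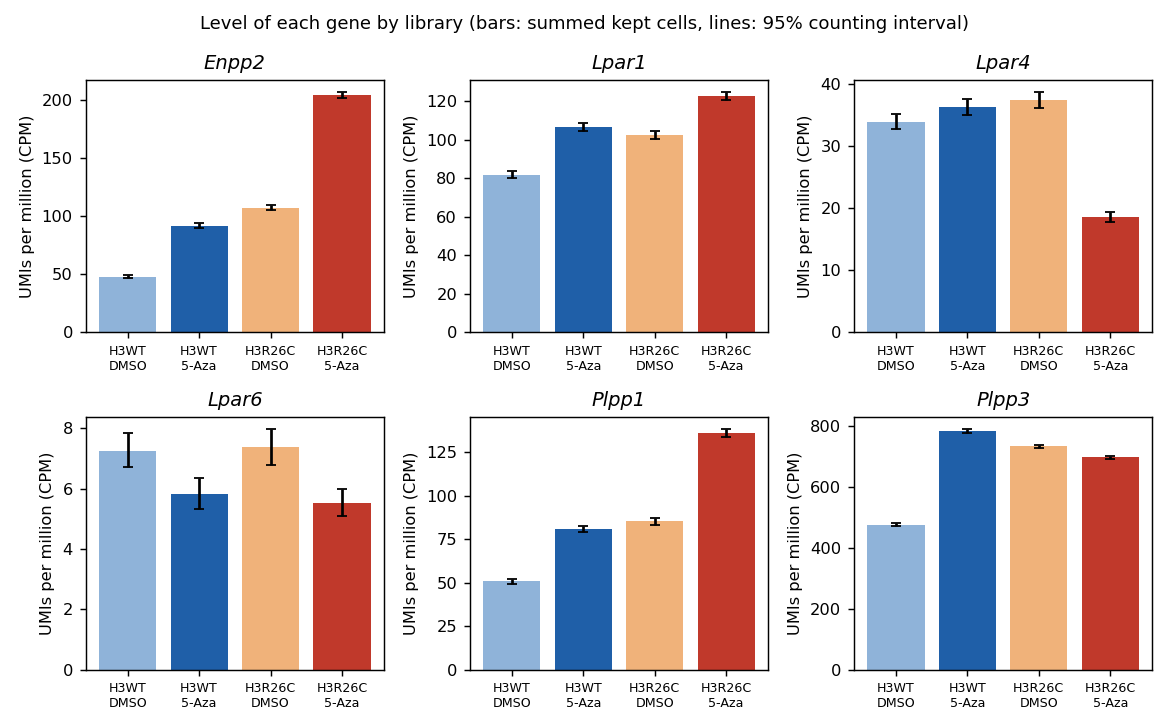
CPM (linear axis from 0) of each of the 6 genes in each of the 4 libraries, bars for the summed kept cells and lines for the 95% counting interval, 1 library per bar. Enpp2 and Plpp1 are highest in H3R26C 5-Aza, at 204 and 136 CPM, and Lpar4 is lowest there, at 18.6 CPM.

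Lpar4 and Lpar6 had other patterns than Enpp2, while Lpar1 went in the direction of Enpp2 in each comparison, by less. For H3R26C against H3WT, Lpar1 was at log2 0.32 with DMSO and 0.20 with 5-Aza, beside 1.14 for Enpp2 in both. Lpar1 was at 81.9 CPM in H3WT DMSO, 107 CPM in H3WT 5-Aza, 102 CPM in H3R26C DMSO and 123 CPM in H3R26C 5-Aza, so it was 1.30 times higher with 5-Aza in H3WT and 1.20 times in H3R26C, and the intervals of the middle 2 libraries met. Lpar4 was at 33.9, 36.3 and 37.4 CPM in the first 3 libraries in the same order and at 18.6 CPM (17.8 to 19.4) in H3R26C 5-Aza, with neighbours among the first 3 overlapping in their intervals. Its ratio of 5-Aza to DMSO was therefore 1.07 (1.02 to 1.13) in H3WT and 0.497 in H3R26C, and the difference of the log2 changes was -1.11 (-1.22 to -0.999). Lpar6 was low throughout, at 7.25 CPM in H3WT DMSO, 5.81 CPM in H3WT 5-Aza, 7.36 CPM in H3R26C DMSO and 5.53 CPM in H3R26C 5-Aza, where the intervals of the 2 DMSO libraries overlapped and so did those of the 2 5-Aza libraries.

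The other LPA receptors were near the floor of these libraries. Lpar2, of the same family as Lpar1, lay between 1.26 and 2.67 CPM. Lpar3 had 0 UMIs in both DMSO libraries, which allows up to 0.035 CPM in H3WT and 0.036 CPM in H3R26C, 3 UMIs in H3WT 5-Aza and 27 UMIs in H3R26C 5-Aza. Lpar5 had 2 to 7 UMIs per library. Lpar1, Lpar4 and Lpar6 were thus the LPA receptors with more than 3 CPM in any library.

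The phosphatases divided. Plpp1 had the same order of libraries as Enpp2, at 50.9 CPM in H3WT DMSO, 81.0 CPM in H3WT 5-Aza, 85.3 CPM in H3R26C DMSO and 136 CPM in H3R26C 5-Aza, which is 1.59 times higher with 5-Aza in H3WT and 1.60 times in H3R26C. The difference of those log2 changes was 0.004 (-0.064 to 0.072). Plpp3 was at 475 CPM in H3WT DMSO, 782 CPM in H3WT 5-Aza, 732 CPM in H3R26C DMSO and 695 CPM in H3R26C 5-Aza. It was 1.65 times higher with 5-Aza in H3WT and 0.9504 times (0.940 to 0.961) in H3R26C, a difference of -0.79 on the log2 scale (-0.82 to -0.77). Plpp2, another phosphatase of the family that was not among the 6, was at 33.3, 48.5, 54.7 and 73.3 CPM in the same order of libraries.

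Thinned to 5000 UMIs per cell, Plpp3 was seen in 77.7% of cells in H3WT DMSO, 84.8% in H3WT 5-Aza, 87.9% in H3R26C DMSO and 76.2% in H3R26C 5-Aza, and Lpar1 in 31.2%, 38.1%, 38.1% and 43.5%. Plpp1 was seen in 19.1%, 29.2%, 30.97% and 44.2%, Lpar4 in 15.1%, 14.3%, 15.4% and 7.91%, and Lpar6 in 2.77% to 3.30%. Plpp3 was thus in fewer cells of H3R26C 5-Aza than of H3WT DMSO, although its CPM was higher there. Enpp2 was seen in 12.6%, 17.8%, 26.04% and 21.1% of cells, in the same order, so the library with the highest CPM did not have the largest share of cells with a UMI. Unthinned shares were higher throughout (for Enpp2, 29.0% to 45.4%), and the part of free RNA in the shares was not tested.

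Enpp2 UMIs were concentrated in few cells. Cells with 8 or more Enpp2 UMIs (Enpp2-high) were 97 of the 3710 H3WT DMSO cells (2.61%, 2.13 to 3.18), 230 of the 5993 H3WT 5-Aza cells (3.84%, 3.37 to 4.36), 313 of the 4727 H3R26C DMSO cells (6.62%, 5.93 to 7.37) and 788 of the 7619 H3R26C 5-Aza cells (10.3%, 9.67 to 11.05). They held 49.9%, 56.6%, 51.1% and 84.9% of all Enpp2 UMIs of their library, in that order. The 5% of cells with most Enpp2 UMIs held 61.9%, 62.6%, 43.9% and 60.7% of them. At an equal fraction of cells, H3R26C 5-Aza was therefore not the most concentrated library. Median depth differed between the libraries, and with 3 or more UMIs after thinning to 5000 as the limit the shares were 1.86%, 4.97%, 6.85% and 10.7%, which moved the ratio of 5-Aza to DMSO in H3WT from 1.47 to 2.67. At the other end, 68.2%, 71.0%, 54.6% and 69.5% of cells had none. The mean Enpp2 count per cell was 1.12, 1.29, 1.90 and 2.96 UMIs, with variances of 17.1, 18.3, 10.1 and 26.3 times the mean.

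**Figure D2:**
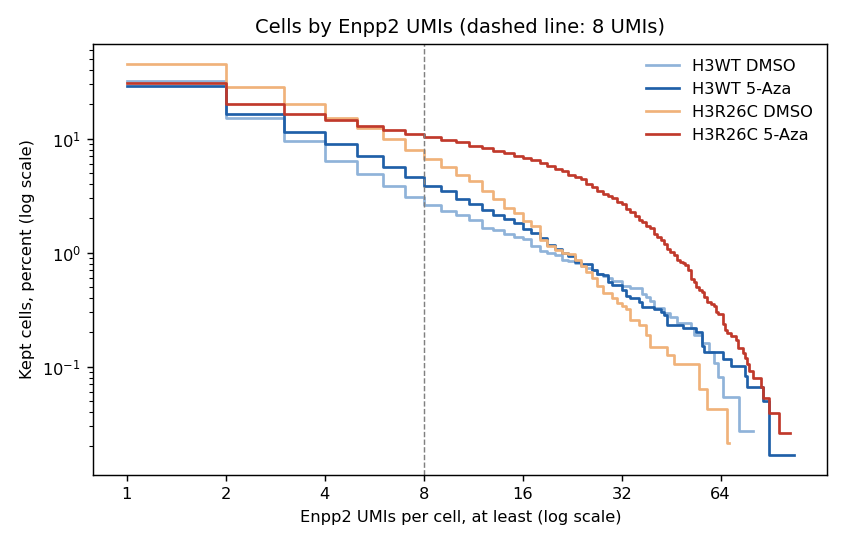
Percent of kept cells (log axis) with at least the number of Enpp2 UMIs on the x axis (log axis), 1 line per library, with the split at 8 UMIs dashed. H3R26C 5-Aza lies above the other 3 libraries from 5 UMIs, at 12.9% of cells, through 8 UMIs, at 10.3%, and up to 64 UMIs. H3R26C DMSO has most cells with 1 or more, at 45.4%.

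The higher Enpp2 of H3R26C 5-Aza lay in its Enpp2-high cells. Outside them the level was 24.7 CPM in H3WT DMSO, 41.6 CPM in H3WT 5-Aza, 55.8 CPM in H3R26C DMSO and 34.4 CPM in H3R26C 5-Aza. Without those cells, H3R26C 5-Aza was 0.616 times H3R26C DMSO (0.589 to 0.645) and 0.828 times H3WT 5-Aza (0.789 to 0.868), the opposite direction to the whole libraries, while the other comparisons kept theirs at 1.68 for 5-Aza in H3WT and 2.26 for H3R26C with DMSO. Since the cells were set aside by their Enpp2 count, this describes where the UMIs were and is no separate comparison. The share of Enpp2-high cells in H3R26C 5-Aza was 1.56 times that in H3R26C DMSO at 8 UMIs, 3.57 times at 16 UMIs and 0.953 times at 4 UMIs, so the direction there depended on the cut.

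Enpp2-high cells were compared next with the cells of the same library that had 0 to 1 Enpp2 UMIs (Enpp2-low), which were 3144, 5016, 3392 and 6101 cells in H3WT DMSO, H3WT 5-Aza, H3R26C DMSO and H3R26C 5-Aza. Enpp2 itself, which set the split, was at 899, 1235, 863 and 1675 CPM in the high cells and at 8.47, 10.9, 13.7 and 9.18 CPM in the low cells. Median depth was close between them, at 22648 and 22148 UMIs in H3WT DMSO, 14763 and 12914 in H3WT 5-Aza, 16017 and 16510 in H3R26C DMSO, and 12964 and 13040 in H3R26C 5-Aza. Cells of 1 library are not replicates, so what follows describes 4 libraries.

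Lpar4 was lower in Enpp2-high cells of every library. It was at 25.5 against 33.5 CPM in H3WT DMSO, 24.2 against 37.3 CPM in H3WT 5-Aza, 31.5 against 39.6 CPM in H3R26C DMSO and 8.82 against 19.9 CPM in H3R26C 5-Aza. The ratios were 0.762 (0.578 to 0.987), 0.650 (0.518 to 0.805), 0.796 (0.677 to 0.931) and 0.443 (0.359 to 0.541). H3R26C 5-Aza was the one library in which a member other than Enpp2 passed the fold between these cells, with Lpar4 at log2 -1.09 where 6.23% of all genes passed. Under 9 alternatives this value lay between -1.40 and -0.961, so it was near the limit and did not always pass. No member passed in H3WT DMSO, H3WT 5-Aza or H3R26C DMSO, where 4.4%, 4.71% and 3.12% of genes did.

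In H3R26C 5-Aza, Lpar4 was lower at each step of the Enpp2 count from 1 UMI upwards. It was at 19.4 CPM in cells with 0 Enpp2 UMIs, 23.4 CPM with 1, 19.4 CPM with 2 to 3, 16.05 CPM with 4 to 7, 12.5 CPM with 8 to 15, 8.56 CPM with 16 to 31 and 3.64 CPM (1.75 to 6.70) with 32 or more. In H3WT 5-Aza it went from 38.1 CPM at 0 to 13.1 CPM at 16 to 31 and was at 43.9 CPM in the 28 cells above that. In H3R26C DMSO it lay between 26.8 and 40.99 CPM below 32 UMIs and at 51.9 CPM in the 16 cells above, and in H3WT DMSO between 28.1 and 40.3 CPM and at 6.73 CPM in 19 cells. In H3WT DMSO, too, each step from 2 to 3 UMIs upwards was lower than the one before. In H3R26C 5-Aza the intervals of neighbouring steps overlapped from 1 UMI upwards. Those at 0 (18.4 to 20.4) and 1 UMI (20.7 to 26.3) did not, and that step was a rise. The top groups of the other 3 libraries held few cells. Lpar4 was also lower in the Enpp2-low cells of H3R26C 5-Aza (19.9 CPM) than in those of the other 3 libraries (33.5 to 39.6 CPM).

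Plpp3 differed in direction between DMSO and 5-Aza libraries, by little in H3WT 5-Aza. In the DMSO libraries it was lower in Enpp2-high cells, at 373 against 499 CPM in H3WT and 565 against 798 CPM in H3R26C, ratios of 0.746 (0.697 to 0.799) and 0.709 (0.683 to 0.735). In the 5-Aza libraries it was higher, at 832 against 765 CPM in H3WT and 879 against 661 CPM in H3R26C, ratios of 1.09 (1.05 to 1.13) and 1.33 (1.30 to 1.36). The log2 ratio with 5-Aza minus that with DMSO was 0.54 (0.43 to 0.65) in H3WT and 0.91 (0.85 to 0.97) in H3R26C, and none of these ratios passed the fold. The difference in H3WT 5-Aza was small, and without cells that had 2 or more UMIs of 5 mitotic genes its log2 ratio went from 0.12 to 0.02, so the higher level there was nearly gone, while in H3R26C 5-Aza it went from 0.41 to 0.29.

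**Figure D3:**
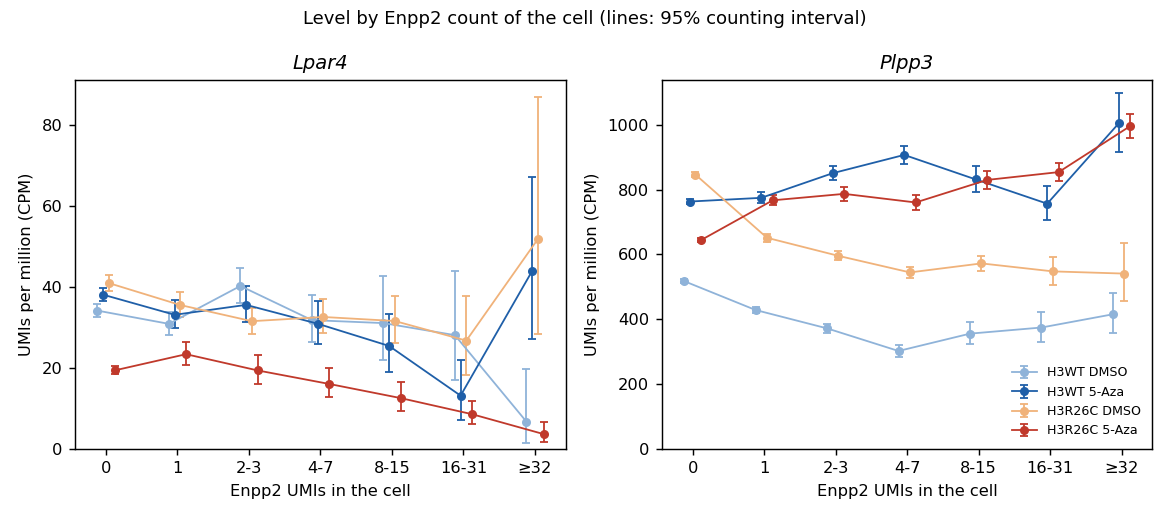
CPM of Lpar4 (left) and Plpp3 (right), linear axes from 0, in cells grouped by their Enpp2 UMIs, 1 line per library, with 95% counting intervals. In H3R26C 5-Aza, Lpar4 goes from 19.4 to 3.64 CPM and Plpp3 from 645 to 996 CPM between 0 and 32 or more UMIs, while in H3R26C DMSO Plpp3 goes from 846 to 541 CPM.

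By Enpp2 count, Plpp3 in H3R26C 5-Aza was at 645 CPM with 0 UMIs, 767 CPM with 1, 760 CPM with 4 to 7 and 996 CPM with 32 or more. In H3R26C DMSO it was at 846 CPM with 0 UMIs, 651 CPM with 1, 544 CPM with 4 to 7 and 541 CPM with 32 or more. In H3R26C the lower level with DMSO was thus reached at 4 to 7 UMIs, below the limit for Enpp2-high cells. The H3WT libraries had no steady course. In H3WT DMSO Plpp3 was at 518 CPM with 0 UMIs, 302 CPM with 4 to 7 and 415 CPM (358 to 480) with 32 or more. In H3WT 5-Aza it was at 763 CPM with 0 UMIs, 775 CPM with 1, 907 CPM with 4 to 7, 832 CPM with 8 to 15, 757 CPM with 16 to 31 and 1005 CPM with 32 or more. Next to that limit in H3R26C 5-Aza, cells with 6 to 7 Enpp2 UMIs (112 cells) were at 750 CPM of Plpp3 and 12.1 CPM of Lpar4, and those with 8 to 9 (84 cells) at 692 and 9.45 CPM.

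Lpar1, Plpp1 and Lpar6 had no single direction between Enpp2-high and Enpp2-low cells over the 4 libraries. Lpar1 had ratios of 0.820 (0.695 to 0.961) in H3WT DMSO, 0.916 (0.820 to 1.02) in H3WT 5-Aza, 0.938 (0.857 to 1.03) in H3R26C DMSO and 1.12 (1.07 to 1.19) in H3R26C 5-Aza. Plpp1 had ratios of 1.09 (0.909 to 1.31), 1.28 (1.14 to 1.42), 1.22 (1.11 to 1.34) and 0.949 (0.899 to 1.001) in the same order. Plpp1 was therefore high in the H3R26C 5-Aza library without being higher in its Enpp2-high cells. Lpar6 rested on 8 to 71 UMIs in the high cells, and its interval excluded 1 in H3WT DMSO only, at 0.481 (0.206 to 0.954).

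**Figure D4:**
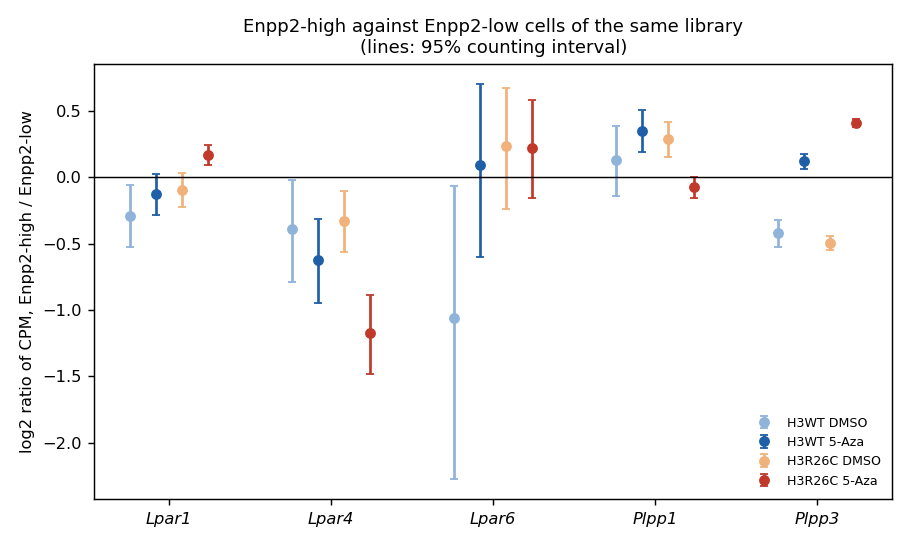
log2 ratio of CPM between Enpp2-high (8 or more UMIs) and Enpp2-low (0 to 1) cells of the same library for the 5 members other than Enpp2, points per library with 95% counting intervals and a line at 0. Lpar4 is below 0 in all 4 libraries, and Plpp3 is below 0 in both DMSO libraries and above 0 in both 5-Aza libraries. The points have no pseudocount. Lpar4 in H3R26C 5-Aza is thus at -1.18 and Lpar6 in H3WT DMSO at -1.06, beside -1.09 and -0.88 with the pseudocount.

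Source, receptor and phosphatase RNA were met in the same cells. At 5000 UMIs, 50.8% of Enpp2-high and 49.1% of Enpp2-low cells of H3R26C 5-Aza had a UMI of Lpar1, Lpar4 or Lpar6, with overlapping intervals. A UMI of Plpp1 or Plpp3 was in 93.1% (91.2 to 94.8) of the high and 82.9% (81.9 to 83.8) of the low cells of that library. In H3WT DMSO it was in 75.3% (65.5 to 83.5) and 82.7% (81.3 to 84.0), with overlapping intervals. Both a receptor and a phosphatase UMI were in 48.0% (44.4 to 51.5) of the high and 42.2% (41.0 to 43.5) of the low cells of H3R26C 5-Aza. Whether these joint shares went beyond what the separate shares give was not tested. The receptor share was lower in high than in low cells of H3WT 5-Aza, at 40.0% (33.6 to 46.6) against 47.7% (46.4 to 49.1), and these intervals, like those of both DMSO libraries, overlapped.

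Markers of several other cell states moved with the split, but no gene of the chondrocyte list passed the fold in any library. The osteoblast genes had members past the fold in H3R26C 5-Aza only, at a sum of 11.1 against 5.22 CPM, with Alpl higher and Bglap2 lower. The 12 skeletal muscle genes summed to 351 CPM in Enpp2-high and 2307 CPM in Enpp2-low cells of H3WT 5-Aza, and to 613 and 2974 CPM in H3R26C 5-Aza, with 11 of 12 lower past the fold in each and none at 0. In the DMSO libraries this list was at 1.13 to 3.17 CPM in all cells, with 8 of 12 at 0 in Enpp2-high cells of each. The 8 adipocyte genes summed to 497 against 263 CPM in H3WT 5-Aza, where Adipoq (the hormone adiponectin), Lpl (lipoprotein lipase), Pparg and Cebpa (adipogenic transcription factors) were higher past the fold and Retn (resistin) was lower. In H3R26C 5-Aza they summed to 221 against 211 CPM with only Retn past the fold, while the median log2 ratio of the 7 tested genes was -0.385. In H3R26C DMSO they summed to 93.7 against 158 CPM, with Adipoq, Fabp4 (a fatty acid carrier) and Retn lower past the fold. In H3WT DMSO they summed to 86.1 against 81.0 CPM, with Adipoq lower past the fold and a median log2 ratio of -0.458 over 5 tested genes. The 5 progenitor genes (Ly6a, Pdgfra, Cd34, Thy1 and Eng) summed to less in Enpp2-high cells of 3 libraries, at 440 against 836 CPM for H3WT and 376 against 956 CPM for H3R26C with DMSO and 844 against 1316 CPM for H3WT with 5-Aza, and to more in H3R26C 5-Aza, at 3222 against 1626 CPM. Past the fold among them, Ly6a and Thy1 were lower in H3WT DMSO, Ly6a was lower in H3R26C DMSO, and Pdgfra was higher and Cd34 lower in H3R26C 5-Aza. The median log2 ratio of the 5 progenitor genes in H3R26C 5-Aza was 0.353. Spp1 (osteopontin) and Plac8, a pair of further markers, summed with DMSO to 608 against 238 CPM in H3WT, where Spp1 was higher past the fold, and to 389 against 419 CPM in H3R26C. With 5-Aza they summed to 1475 against 893 CPM in H3WT and to 6752 against 5174 CPM in H3R26C, where Plac8 was higher past the fold. Without cells that carried 3 or more markers of the skeletal muscle or the adipocyte list after thinning, Lpar4 in H3R26C 5-Aza was still at log2 -1.02 and Plpp3 at 0.32. Cells were not set aside by the other lists. The 5 endothelial genes summed to 23.3 against 8.33 CPM in H3R26C 5-Aza and the 5 blood genes to 60.5 against 19.0 CPM. The blood genes summed to more in Enpp2-high cells of the other libraries too. They were at 13.4 against 8.54 CPM in H3WT DMSO, 30.4 against 17.3 CPM in H3WT 5-Aza and 11.8 against 9.21 CPM in H3R26C DMSO. The endothelial genes were at 0.433 against 5.11 CPM, 8.74 against 7.31 CPM and 1.13 against 6.43 CPM in the same order. The part of both lists in the results was not tested.

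The members were also read in cells chosen by those markers. With at least 6 of the 12 muscle markers after thinning there were 238 cells in H3WT 5-Aza and 338 in H3R26C 5-Aza, and none in the DMSO libraries. Plpp1 was higher there than in cells with fewer than 3 markers of both the muscle and the adipocyte list. It was at 128 against 78.7 CPM in H3WT 5-Aza and 201 against 135 CPM in H3R26C 5-Aza. The share of thinned cells with a Plpp1 UMI differed little. It was 30.7% (24.9 to 37.0) against 29.4% in H3WT 5-Aza and 47.3% (41.9 to 52.8) against 44.9% in H3R26C 5-Aza. Plpp3 was lower in the muscle-marked cells, at 350 against 815 CPM and 253 against 734 CPM. Lpar1, Lpar4 and Enpp2 were lower too, with Lpar4 at 13.2 against 38.4 CPM and 5.16 against 19.6 CPM, and Enpp2 at 29.6 against 88.8 CPM and 60.3 against 202 CPM. Lpar6 was at 4.51 CPM (2.58 to 7.32) against 5.70 CPM in H3WT 5-Aza, within its interval, and at 3.55 CPM (2.22 to 5.37) against 5.62 CPM in H3R26C 5-Aza. With a gate of 3 muscle markers, which took 1365 and 1849 cells, Enpp2 was at 77.2 and 211 CPM, so its direction in H3R26C 5-Aza depended on the gate. Lpar6 in H3WT 5-Aza was at 5.81 CPM with that gate, so its direction there depended on the gate too.

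Cells with at least 3 of the 8 adipocyte markers numbered 19 in H3WT DMSO, 101 in H3WT 5-Aza, 30 in H3R26C DMSO and 56 in H3R26C 5-Aza. More cells, 108, 408, 140 and 471, lay 1 marker below this gate. Enpp2 in the gated cells was at 43.0, 378, 148 and 189 CPM, against 48.0, 88.8, 107 and 202 CPM in cells outside both gates. The level was above that outside, beyond its interval, in H3WT 5-Aza (349 to 409), where 21 of the 101 were Enpp2-high, and in H3R26C DMSO (119 to 182), where 4 of the 30 were. These intervals do not cover which cells were sampled. The share of thinned cells with an Enpp2 UMI was 43.6% (33.7 to 53.8) against 17.8% in H3WT 5-Aza. It differed little in H3R26C DMSO, at 26.7% (12.3 to 45.9) against 26.04%. With 6 markers Enpp2 was at 136 CPM in H3WT 5-Aza (20 cells) and 62.4 CPM in H3R26C DMSO (10 cells). It was at 76.8 CPM (30.9 to 158) in H3WT DMSO (5 cells) and 21.5 CPM in H3R26C 5-Aza (7 cells). The direction in both DMSO libraries thus depended on the gate. Lpar1 was lower in the adipocyte-gated cells of all 4 libraries, at 25.3 against 82.2 CPM, 67.8 against 109 CPM, 42.1 against 103 CPM and 88.5 against 126 CPM in the same order.

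The genes around the members were read from lists of 59 genes of LPA and sphingosine 1-phosphate metabolism and signalling. With 5-Aza, 6 of 47 tested genes were higher past the fold in H3WT and 8 of 46 in H3R26C, and none were lower, beside 5.15% and 12.1% of all genes. Ankrd1, a YAP target, went from 0.311 to 30.6 CPM in H3WT and from 0.238 to 87.2 CPM in H3R26C, and Tagln, a smooth muscle actin-binding protein, from 2.15 to 23.1 CPM and from 6.03 to 13.1 CPM. S1pr3, a sphingosine 1-phosphate receptor, went from 0.173 CPM (15 UMIs) to 5.47 CPM and from 0.048 CPM (4 UMIs) to 12.9 CPM. Enpp5, a relative of autotaxin, went from 0.127 to 4.86 CPM and from 0.119 to 3.49 CPM, and Pla1a, a secreted phospholipase A1, from 11.3 to 41.6 CPM and from 8.17 to 25.9 CPM. These 5 genes passed in both, with Tagln in H3R26C right at the limit.

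The others that passed with 5-Aza did so in 1 comparison each. Acta2, smooth muscle actin, went from 234 to 477 CPM in H3WT. Enpp1, the pyrophosphatase relative of autotaxin, went from 11.6 to 60.4 CPM in H3R26C, beside 10.4 to 20.3 CPM in H3WT (log2 0.90). Gpat3, which makes LPA inside the cell, went from 1.80 to 7.05 CPM in H3R26C, and Agpat4, which acylates it, from 22.2 to 54.9 CPM. For H3R26C against H3WT with DMSO, 1 gene was higher (Tagln) and 1 lower (Enpp6, at 0.773 against 2.85 CPM) of 44, beside 2.5% of all genes. With 5-Aza, 5 were higher (Enpp1, Ankrd1, Agpat4, Gpat3 and S1pr3) and 1 lower of 46, beside 7.64%. The lower one was Ccn2, the growth factor CTGF and a YAP target, at 34.8 against 126 CPM.

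In Enpp2-high against Enpp2-low cells the genes named after SRF and YAP passed the fold mostly with 5-Aza, where they were lower with 1 exception. Of 5 tested in each DMSO library, Tagln and Ccn2 were lower past the fold in H3WT and Ccn2 in H3R26C. Of 6 tested in each 5-Aza library, Acta2 and Tagln (smooth muscle cytoskeleton), Ccn2 and Ankrd1 were lower past the fold in both, with Acta2 at 176 against 533 CPM in H3WT and 161 against 547 CPM in H3R26C. The median log2 ratio of the tested genes of this list was -1.32 in H3WT 5-Aza and -1.25 in H3R26C 5-Aza, beside 0.03 and 0.01 over all genes tested. Ccn1, which is in the same list, was higher in H3R26C 5-Aza, at 452 against 214 CPM. Skeletal muscle markers were lower in Enpp2-high cells of both 5-Aza libraries too. Their part in the values of the SRF and YAP genes was not tested. Ccn2 was lower past the fold in all 4 libraries, at 26.4 against 72.3 CPM, 66.2 against 138 CPM, 6.95 against 45.5 CPM and 14.7 against 38.5 CPM in H3WT DMSO, H3WT 5-Aza, H3R26C DMSO and H3R26C 5-Aza. Over all 59 genes, 4 were higher and 3 lower of 45 tested in H3WT DMSO, 2 and 4 of 47 in H3WT 5-Aza, 0 and 1 of 43 in H3R26C DMSO, and 3 and 5 of 46 in H3R26C 5-Aza, beside 4.4%, 4.71%, 3.12% and 6.23% of all genes. Agpat2, an LPA acyltransferase, was higher in both H3WT libraries, at 84.8 against 35.7 CPM with DMSO and 94.4 against 39.0 CPM with 5-Aza, and so was S1pr3, at 3.46 CPM (8 UMIs) against 0.069 CPM (5 UMIs) and 12.4 against 4.73 CPM. Enpp6, a choline-specific relative of autotaxin, was higher in H3WT DMSO, at 6.06 against 2.50 CPM, and in H3R26C 5-Aza, at 3.67 against 1.15 CPM. In H3WT DMSO Gpat3 was higher, at 3.03 against 0.898 CPM, and Pla1a lower, at 3.03 against 12.1 CPM. In H3R26C 5-Aza Agpat4 was higher, at 103 against 47.8 CPM, and Plppr3 lower, at 2.80 against 7.10 CPM. No gene of the 10 tested for G proteins and their exchange factors passed the fold in any of the 4 libraries.

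The genes whose log2(1 + UMIs), after thinning and among genes seen in at least 5% of cells, varied most like Enpp2 over the 7619 cells of H3R26C 5-Aza were Tmem176a (r = 0.41), Tmem176b (0.41), Nbl1 (0.38), Mpp6 (0.38) and Gas6 (0.38). None of the members came near, with Plpp3 at 0.13, Lpar1 at 0.015, Lpar6 at 0.003, Plpp1 at -0.002 and Lpar4 at -0.055. In the other 3 libraries the 5 leading genes had r between -0.035 and 0.143 with Enpp2. They were picked as the highest in H3R26C 5-Aza, and no ranking was made for Enpp2 elsewhere. The lower values thus do not show a likeness particular to that library. Tmem176a and Tmem176b were seen in 0.73% and 1.59% of H3WT DMSO cells and 0.95% and 1.89% of H3WT 5-Aza cells, under the 5% limit. Plpp3 was at -0.066 and -0.117 with DMSO in H3WT and H3R26C and at 0.032 in H3WT 5-Aza. For Plpp3 the most alike were Clec3b (0.43) and Smoc2 (0.37) in H3WT 5-Aza, and for Lpar4 they were Clec3b (0.20) and Pi16 (0.19) in H3R26C DMSO. Values for Lpar1 (Plpp3 0.13, Fstl1 0.12) and Lpar6 (Adamts1 0.06, Uspl1 0.06) were too small for sparse counts to be read as a pattern. All of these are Pearson correlations across cells that share a library, and are descriptions.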

How the data were processed

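Single cells of 4 libraries, 1 per condition, were measured by 10x Genomics sequencing. Per the labels and the study's methods, the authors made UMI counts per gene and barcode with Cell Ranger (version 6 in the processing notes) on mm10. The deposited counts, not normalized, were used as they were. Seurat 4 is named too, but no normalized values were used here. Cells were kept as stated in the report, and doublets were not removed. CPM came from summed counts. Intervals are exact Poisson for CPM, exact Clopper-Pearson for shares and conditional exact binomial for ratios, at 95%, for counting error only. log2 ratios have a pseudocount of 1 CPM. Cells were thinned to 5000 UMIs without replacement. With 1 library per condition no test was run. The scripts were tested on simulated data (Python 3.11.15, scipy 1.17.1).

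Named genes are the 6 members throughout, pathway genes past the fold (at most 8 by size) with the other LPA receptors, the 5 genes most like Enpp2 and 2 most like each other member, and markers by list. The genes most like Plpp1 are not reported here. The members and lists were chosen with earlier results of these data known. Alternatives were other cuts, filters, scalings, thinnings and gates.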

Additional observations from a re-analysis of the deposited data

Results flagged for a closer look

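Lpar4 and Plpp3 had ratios on opposite sides of 1 under the same contrast in different groups. For 5-Aza against DMSO, 1 of the 2 ratios of each gene was close to 1. With 1 library per condition none of these differences could be tested. Lpar4 was 1.07 times higher with 5-Aza than with DMSO in H3WT and 0.497 times in H3R26C. In H3R26C against H3WT it was 1.10 times with DMSO and 0.512 times with 5-Aza, which are the same 4 libraries read the other way. Plpp3 was 1.65 times higher with 5-Aza in H3WT and 0.9504 times in H3R26C, and in H3R26C against H3WT it was 1.54 times with DMSO and 0.889 times with 5-Aza. Under 8 alternatives the log2 ratio of Plpp3 for 5-Aza in H3R26C lay between -0.27 and 0.001, with the sign changed in 1. In Enpp2-high against Enpp2-low cells, Plpp3 was at 0.746 and 0.709 times in the DMSO libraries of H3WT and H3R26C and at 1.09 and 1.33 times in their 5-Aza libraries, the first of which was nearly gone without mitotic cells (log2 0.02).

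Barcodes under 5000 UMIs, which the cell filter left out, also held Enpp2. Of these, 2 of 8982 in H3WT 5-Aza and 36 of 4462 in H3R26C 5-Aza had 8 or more Enpp2 UMIs, and 0 of 2497 and 0 of 1803 did in the DMSO libraries of H3WT and H3R26C. Their summed Enpp2 was at 195 CPM in H3R26C 5-Aza, beside 204 CPM in kept cells, and at 20.7, 47.7 and 57.3 CPM in H3WT DMSO, H3WT 5-Aza and H3R26C DMSO, beside 48.0, 91.8 and 107 CPM. In barcodes under 1000 UMIs alone it was at 124 CPM (107 to 143) in H3R26C 5-Aza. It was at 23.9, 49.9 and 50.2 CPM there in H3WT DMSO, H3WT 5-Aza and H3R26C DMSO.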

How the results depend on the processing

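No paired analysis was possible because a single library stands for each condition and the labels number no replicates, and for the same reason no library could be left out. Under 8 alternatives (another pseudocount, scaling, averaging or cell filter, or part of the cells) the log2 ratios of the 6 members between libraries stayed within the counting interval in 151 of 192 cases. For Enpp2 the mean of per-cell CPM gave 0.85 and 0.99 for 5-Aza in H3WT and H3R26C, and 1.21 and 1.35 for H3R26C with DMSO and 5-Aza. The stricter filter (10000 UMIs) gave 0.86 for 5-Aza in H3R26C and 1.03 for H3R26C with 5-Aza. In cells with 0 to 1 Enpp2 UMIs, a choice made on Enpp2 itself, the 4 values in that order were 0.33, -0.53, 0.63 and -0.23, and without cells of 8 or more, an alternative chosen after seeing the data, 0.73 for 5-Aza in H3WT, -0.68 for 5-Aza in H3R26C and -0.27 for H3R26C with 5-Aza.

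The ratio of the shares of Enpp2-high cells depended on the cut. For 5-Aza in H3WT it was 1.47, and 2.67 at 3 UMIs after thinning. For 5-Aza in H3R26C it was 1.56, and 0.953 at 4 and 3.57 at 16 UMIs. For H3R26C with DMSO it was 2.53, and 1.44 at 16 UMIs and 3.69 after thinning. For H3R26C with 5-Aza it was 2.69, and 1.63 at 4 UMIs, 4.24 at 16 UMIs and 2.15 after thinning. Between Enpp2-high and Enpp2-low cells, 168 of 180 cases stayed within the interval. In H3R26C 5-Aza, Lpar4 lay between -1.40, with a split at 16 or more against 0, and -0.961, which is short of the fold. Plpp3 there was at 0.49 with that split, 0.44 with the thinned split, 0.32 without gated cells and 0.29 without mitotic cells. Without mitotic cells Plpp3 in H3WT 5-Aza was at 0.02 in place of 0.12. The cause was not tested in these cases. Over genes of at least 10 CPM, 225, 764, 142 and 546 genes passed the fold in place of 650, 1571, 306 and 994 for 5-Aza in H3WT and H3R26C and H3R26C with DMSO and 5-Aza, or 2.57%, 8.43%, 1.63% and 6.05% of the genes tested in place of 5.15%, 12.1%, 2.5% and 7.64%. Lpar6, with 490 to 630 UMIs per library, limits what its ratios can show.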
